A study of Homo sapiens with 16 samples.

Results

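The interleukin 1 receptor family genes examined here are 10 genes of a count table of 58735 genes: the receptors IL1R1, IL1R2, IL1RL1, IL1RL2 and IL18R1, the coreceptors IL1RAP and IL18RAP, and the soluble proteins IL18, IL33 and IL1RN. They were taken by gene name, and the names were chosen from earlier results of these same libraries. Their differences between groups are therefore a description, given without p-values. Where a member is said to be called or not called, this restates a threshold in a fit over all genes and is no independent evidence. A member difference without such a remark is not thereby called. The cells were HepaRG, a human liver line that matures in culture into hepatocyte-like and cholangiocyte-like cells, differentiated in medium with 2% DMSO and then treated for 3 days. The combination group received 30 nM formoterol together with 0.25 mM palmitic acid and 0.5 mM oleic acid, the fatty acid group received the same fatty acids alone, the formoterol group received 30 nM formoterol alone, and the control group received a 1% bovine serum albumin vehicle, which the labels name for that group alone. The HepaRG medium of all groups also held serum, insulin and triamcinolone acetonide, a glucocorticoid. Formoterol is a long-acting beta-adrenergic agonist, and palmitic and oleic acid are a saturated and a monounsaturated fatty acid used to load liver cells with lipid. Each group had 4 libraries, made from poly-A RNA of a single cell line, and the libraries held 32471299 to 65673126 gene counts. The labels call the replicates independent without saying whether they were separate cultures, so each error or p-value reflects only how much these libraries varied, which may be technical.

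The signalling receptors of this family sit in the plasma membrane and carry a Toll/interleukin 1 receptor domain on the inside. A ligand binds its primary receptor, the pair recruits a coreceptor, and the adaptor MYD88 and the IRAK kinases then pass the signal to NF-kB and the MAP kinases. In hepatocytes interleukin 1 is known for inducing acute-phase proteins, while IL1R2 is a decoy that binds interleukin 1 without signalling and IL1RL1, also called ST2, is the receptor of the alarmin interleukin 33. In bulk RNA, fewer cells of a type and less RNA per cell cannot be told apart.

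The members that differed most between groups, IL1RL1 and IL18R1, lie beside each other on chromosome 2, and the 250 bases before their RefSeq starts are shown for that reason, together with those of the decoy receptor gene IL1R2 at the start of the cluster. IL1RL1 has a proximal and a distal start, and both are shown. IL18R1 and IL1R2 each have a further RefSeq start, at windows 102356033 to 102356332 and 101998711 to 101999010, which held no searched motif and are not printed. Gene-level counts do not separate transcripts from these starts, nor transcripts with different ends. Annotated protein-coding IL1RL1 transcripts end at 102346099 as well as at 102352037, and IL1RAP has 19 annotated transcripts. For both genes the counts do not show which form of the protein the RNA encodes, membrane-bound or secreted. All are on the plus strand of GRCh38.p14 (RefSeq) and are written 5′ to 3′, with capitals marking letters of the searched motifs.
IL1RL1 proximal, chr2:102337007-102337256: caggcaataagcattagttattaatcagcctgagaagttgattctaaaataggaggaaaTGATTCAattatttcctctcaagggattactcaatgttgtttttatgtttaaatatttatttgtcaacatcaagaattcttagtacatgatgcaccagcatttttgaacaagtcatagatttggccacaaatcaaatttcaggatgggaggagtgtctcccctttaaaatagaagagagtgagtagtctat
IL1RL1 distal, chr2:102311313-102311562: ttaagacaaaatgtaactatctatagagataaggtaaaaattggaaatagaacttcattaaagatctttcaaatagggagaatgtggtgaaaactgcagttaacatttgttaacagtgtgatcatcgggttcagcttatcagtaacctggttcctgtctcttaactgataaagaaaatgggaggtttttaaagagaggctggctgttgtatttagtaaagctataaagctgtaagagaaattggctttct
IL18R1 first start, chr2:102355546-102355795: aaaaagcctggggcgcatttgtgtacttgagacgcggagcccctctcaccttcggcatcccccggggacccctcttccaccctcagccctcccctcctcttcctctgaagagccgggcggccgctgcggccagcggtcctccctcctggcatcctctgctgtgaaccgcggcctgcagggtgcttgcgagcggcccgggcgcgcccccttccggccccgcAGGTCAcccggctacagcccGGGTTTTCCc
IL1R2 first start, chr2:101991710-101991959: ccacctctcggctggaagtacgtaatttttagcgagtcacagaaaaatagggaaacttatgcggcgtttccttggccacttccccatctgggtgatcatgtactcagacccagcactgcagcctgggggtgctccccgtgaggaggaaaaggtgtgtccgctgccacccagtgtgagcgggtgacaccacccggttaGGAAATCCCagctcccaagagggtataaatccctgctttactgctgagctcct

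The motifs searched, on both strands and over windows from 250 bases before to 50 bases after each start, were TGACGTCA (cAMP response element), its core TGACG, GGGNNTTCC (NF-kB), TGANTCA (AP-1), TTGCNNAA (C/EBP), AGGTCA (nuclear receptors) and TGTTCT (glucocorticoid receptor). The first holds the second, so their matches overlap. RefSeq gave 22 such windows for 9 of the 10 members, and IL18 was not among them. The full cAMP response element was in none of the 22 member windows and in 1.85% of 35116 windows of all genes. Its core TGACG was in 1 member window, that of the proximal IL1RL1 start, where it lies after the printed bases, and in 24.6% of all windows. In the printed bases the proximal IL1RL1 sequence carries TGATTCA, which matches the searched TGANTCA, where N allows any base. It is not shown to be an AP-1 consensus. TGANTCA was in 2 member windows and 7.71% of all windows. The printed IL18R1 and IL1R2 sequences each carry an NF-kB match, and GGGNNTTCC was in 2 member windows and 6.58% of all windows. The IL18R1 sequence also carries AGGTCA, which was in 4 member windows and 13.8% of all windows, while no motif was found in the distal IL1RL1 window. TTGCNNAA was in 1 member window and 10.5% of all windows, and TGTTCT in 2 member windows and 14.8%. A match is a run of letters in a window and is not shown here to be a bound site.

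The receptor genes for interleukin 1, interleukin 33 and interleukin 18 were well expressed in these cells, while the soluble members IL33 and IL1RN were at or near the detection limit. Levels are given as CPM, the usual unit of gene counts relative to the library total, scaled by the trimmed mean of M-values (TMM), and per kilobase of exon where genes are compared. In control cells the decoy receptor IL1R2 was the highest member at 186 ± 8.88 CPM per kb (SD, n = 4). IL1R1, the signalling receptor for interleukin 1, followed at 69.5 ± 3.48 CPM per kb, IL1RL1 at 30.2 ± 1.52 and IL18R1, the ligand-binding chain of the interleukin 18 receptor, at 24.4 ± 1.07. IL18 stood at 7.85 ± 0.545 CPM per kb and IL1RAP, the coreceptor for interleukin 1 and interleukin 33, at 1.17 ± 0.0994 in control cells. Each of these 6 genes was above the next in every control library, and the same held in combination and formoterol libraries. Fatty acid libraries had a different order, in that IL18 at 11.4 ± 0.612 CPM per kb and IL18R1 at 11.2 ± 0.521 overlapped.

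Among the 18121 genes that passed the count filter, IL1R2 ranked 237th by CPM per kb in combination, 247th in fatty acid, 176th in formoterol and 113th in control libraries. IL1RL1 ranked 882nd in combination, 2129th in fatty acid, 785th in formoterol and 1096th in control libraries. Per kilobase, IL1R2 was thus within the top 247 genes in all groups, and IL1RL1 stood lowest in the order in fatty acid libraries.

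The group differences were read from 1 edgeR quasi-likelihood fit over 18121 genes and 16 libraries, in which 8 of the 10 members were tested and IL1RN and IL33 fell below the count filter. A gene was called at an adjusted p under 0.05. Of the 8 members, 2 were called higher and 4 lower in fatty acid cells than in control cells, where 16.5% of all genes were called. In formoterol against control cells 2 members were called higher and 2 lower, with 10.3% of all genes called. In combination against fatty acid cells, which is formoterol added to fatty acids, 2 were higher and 1 lower, with 2.8% of all genes called. In combination against formoterol cells, which is fatty acids added to formoterol, 2 were higher and 3 lower, with 18.4% of all genes called. These 5 were 3 without combination replicate 1 or without formoterol replicate 3. In combination against control cells 2 were higher and 2 lower, with 14.3% called. For the interaction, the formoterol effect with fatty acids minus the effect without them, 3 members were higher and 0 lower, with 5.5% called. Since these contrasts helped choose the members, nothing is read from the counts.

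The median log2 fold change of the 8 tested members was −0.63 in fatty acid against control cells, beside 0.01 over all genes tested. It was 0.22 in combination against fatty acid cells, beside 0.00 over all genes. The member median was 0.06 in formoterol against control, −0.22 in combination against formoterol and −0.10 in combination against control cells. The medians include the scarce genes IL1RL2 and IL18RAP. They restate values that helped choose the members, so nothing is read from them. These 5 pairwise comparisons share groups, so their values are not independent of each other.

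**Figure D1:**
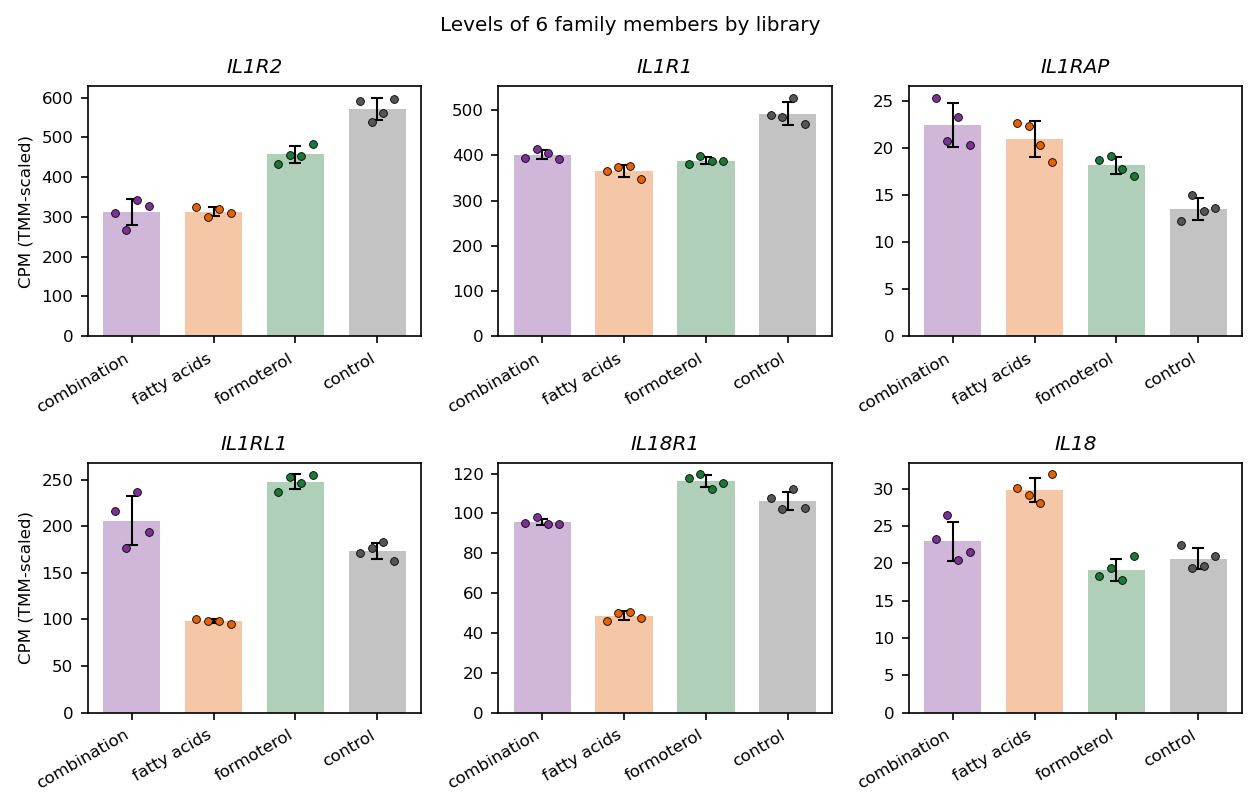
TMM-scaled CPM (vertical axis, from 0) of 6 family members in each library; bars are group means, error bars SD and points the 4 libraries of each group. IL1RL1 and IL18R1 were lowest in all 4 fatty acid libraries, whereas IL1R2 and IL1R1 were highest in all 4 control libraries and IL1RAP was lowest in them.

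The receptor genes for interleukin 33 and interleukin 18, IL1RL1 and IL18R1, had similar profiles: both were low with fatty acids alone and near or above control once formoterol was present. IL1RL1 had 217, 176, 237 and 193 CPM in the combination libraries, against 101, 98.02, 98.03 and 95.3 CPM in the fatty acid libraries. The 2 groups did not overlap, and the combination was 1.07 ± 0.07 higher on the log2 scale (SE), or 2.10-fold. In formoterol libraries IL1RL1 had 237, 252, 246 and 255 CPM, against 171, 177, 183 and 162 CPM in control libraries. All 4 formoterol libraries were above all 4 control libraries, with a log2 difference of 0.51 ± 0.07. Formoterol was thus accompanied by higher IL1RL1 with and without fatty acids, and the log2 difference was 0.56 ± 0.10 larger with them.

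Fatty acids alone were accompanied by less IL1RL1, with a log2 difference of −0.82 ± 0.07 in fatty acid against control libraries, which did not overlap. In the presence of formoterol the fatty acid difference was smaller, at −0.27 ± 0.07 in combination against formoterol libraries, again without overlap. Combination and control libraries overlapped for IL1RL1, and their group means were 206 ± 26.4 and 173 ± 8.74 CPM (SD, n = 4 each), a log2 difference of 0.25 ± 0.07. The combination group had the widest spread, an SD of 12.8% of its mean, against 2.29% in fatty acid, 3.21% in formoterol and 5.04% in control libraries.

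IL18R1 had 95.4, 98.2, 94.6 and 94.8 CPM in the combination libraries, against 45.8, 50.2, 50.7 and 47.7 CPM in the fatty acid libraries. The combination libraries were tightly grouped and all lay above the fatty acid libraries, with a log2 difference of 0.98 ± 0.06, or 1.97-fold. In formoterol libraries IL18R1 had 118, 120, 112 and 115 CPM, against 108, 102, 112 and 103 CPM in control libraries. The 2 groups lay close together, with the lowest formoterol library at 112.3 CPM just above the highest control library at 112.1 CPM, and the log2 difference of 0.13 ± 0.05 was not called. Fatty acid against control libraries differed by −1.13 ± 0.06 on the log2 scale, the widest fatty acid difference among the members with over 10 CPM. In combination against formoterol libraries the difference was −0.28 ± 0.05, and in combination against control libraries it was −0.15 ± 0.05, not called. The formoterol effect on IL18R1 was 0.85 ± 0.08 larger on the log2 scale with fatty acids than without.

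Among the 9255 genes that averaged 10 CPM or more, IL1RL1 had the 14th and IL18R1 the 22nd highest log2 fold change when formoterol was added to fatty acids. In fatty acid against control cells IL18R1 had the 23rd, IL1R2 the 55th and IL1RL1 the 70th lowest log2 fold change. These ranks restate the values that chose the genes.

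The balance between the 2 receptor genes differed from control in every treated group. The ratio of IL1RL1 to IL18R1, per kilobase, was 1.63 ± 0.229 in combination, 1.53 ± 0.0926 in fatty acid, 1.61 ± 0.0707 in formoterol and 1.24 ± 0.0533 in control libraries (SD, n = 4). The lowest ratio in any treated library was 1.36, in combination replicate 2, and the highest in a control library was 1.31.

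IL1RAP, the coreceptor that both IL1R1 and IL1RL1 need to signal, was higher than control in every treated group. It had 25.4, 20.7, 23.3 and 20.4 CPM in the combination libraries, against 12.2, 15.0, 13.3 and 13.7 CPM in control libraries, a log2 difference of 0.73 ± 0.10. It had 22.7, 22.3, 20.3 and 18.5 CPM in fatty acid libraries and 18.7, 19.2, 17.8 and 17.1 CPM in formoterol libraries, log2 differences of 0.63 ± 0.10 and 0.42 ± 0.10 from control. Each treated group lay wholly above control. Combination and fatty acid libraries overlapped, with a difference of 0.10 ± 0.10, while combination libraries lay above formoterol libraries by 0.30 ± 0.10. The interaction for IL1RAP was −0.33 ± 0.14 on the log2 scale and was not called.

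IL18RAP, the coreceptor for interleukin 18, was barely detected. It had 0.117 to 1.00 CPM in combination, 0.0592 to 0.506 CPM in fatty acid, 0.143 to 1.45 CPM in formoterol and 0.348 to 0.869 CPM in control libraries. All groups overlapped, and its log2 differences had SEs of 0.68 to 0.71 in the pairwise comparisons, so a difference of the size seen for IL18R1 was not detectable at this depth. Its level per kilobase in control cells was 0.207 ± 0.0759 CPM, beside 24.4 ± 1.07 CPM for IL18R1.

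The receptor pair for interleukin 1 itself followed another pattern, in which both the signalling receptor IL1R1 and the decoy IL1R2 were lower than control in every treated group. IL1R2 had 310, 268, 344 and 327 CPM in combination libraries, 325, 301, 320 and 309 CPM in fatty acid libraries and 434, 456, 454 and 485 CPM in formoterol libraries, against 591, 539, 561 and 598 CPM in control libraries. No treated library reached the lowest control library. The log2 differences from control were −0.87 ± 0.07 for the combination, −0.87 ± 0.07 for fatty acids and −0.32 ± 0.07 for formoterol. Combination and fatty acid libraries overlapped, with a difference of −0.01 ± 0.07 whose sign turned in 3 of 21 alternatives, so no formoterol difference in IL1R2 was resolved when fatty acids were present. Combination libraries lay below formoterol libraries by 0.55 ± 0.07 on the log2 scale. The interaction for IL1R2 was 0.32 ± 0.09 and was not called.

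IL1R1 had 394, 415, 406 and 392 CPM in combination libraries, 365, 374, 376 and 348 CPM in fatty acid libraries and 380, 398, 387 and 388 CPM in formoterol libraries, against 489, 485, 527 and 469 CPM in control libraries. The treated groups lay close together and wholly below control, with log2 differences of −0.29 ± 0.05 for the combination, −0.43 ± 0.05 for fatty acids and −0.34 ± 0.05 for formoterol. Added to fatty acids, formoterol was accompanied by slightly higher IL1R1, with every combination library above every fatty acid library and a log2 difference of 0.14 ± 0.05 that was not called. The formoterol difference thus had opposite signs with and without fatty acids, and the interaction was 0.48 ± 0.07.

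The decoy therefore made up less of the pair in cells given fatty acids. The ratio of IL1R2 to IL1R1, per kilobase, was 1.79 ± 0.214 in combination, 1.98 ± 0.0947 in fatty acid, 2.71 ± 0.112 in formoterol and 2.69 ± 0.218 in control libraries (SD, n = 4). The combination and fatty acid libraries spanned 1.49 to 2.06, below all formoterol and control libraries at 2.45 to 2.94. The ratio of the signalling receptor IL1R1 to its coreceptor IL1RAP was 29.5 ± 3.27 in combination, 28.6 ± 2.19 in fatty acid, 34.9 ± 1.77 in formoterol and 59.7 ± 6.27 in control libraries. No treated library was above 37.1 and no control library below 52.8. The ratio of IL1RL1 to IL1R2 was 0.353 ± 0.0259 in combination and 0.290 ± 0.00617 in formoterol libraries, beside 0.167 ± 0.00477 in fatty acid and 0.163 ± 0.0149 in control libraries, so that libraries with formoterol stood apart from those without.

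IL1RL2, the receptor for interleukin 36, stayed between 0.178 and 1.36 CPM in all 16 libraries. Its means were 0.841 ± 0.0974 CPM in combination, 0.673 ± 0.439 CPM in fatty acid, 0.945 ± 0.205 CPM in formoterol and 0.874 ± 0.413 CPM in control libraries. The groups overlapped in every comparison, and the SEs of its pairwise log2 differences were 0.44 to 0.45.

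**Figure D2:**
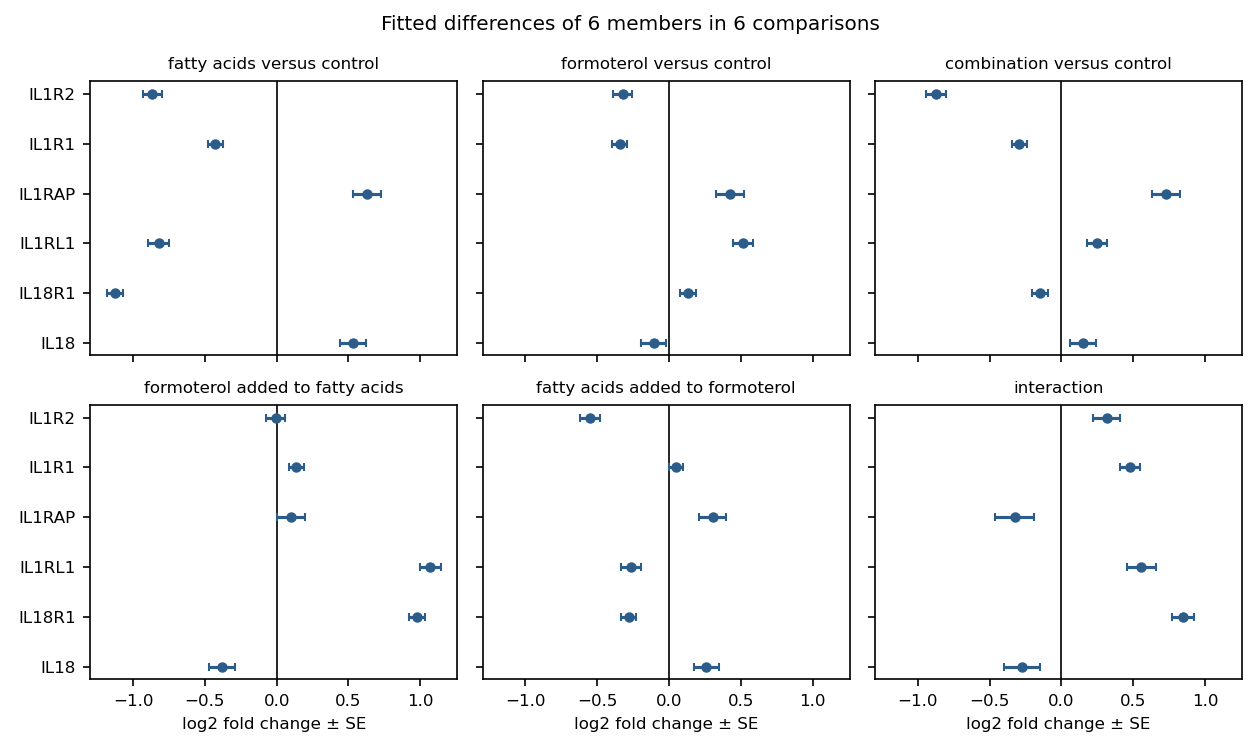
Log2 fold changes with SE (horizontal axis) of 6 members in 5 pairwise comparisons and the interaction, from the fit over 18121 genes; the line marks no difference. Fatty acids versus control separated 4 receptor genes on the lower side from IL1RAP and IL18 on the higher side, and formoterol added to fatty acids moved IL1RL1 and IL18R1 by 1.07 and 0.98.

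Of the soluble members, IL18 was the only 1 above 1 CPM. IL18 is an inflammatory cytokine made as a precursor that caspase 1 cleaves. It had 23.2, 26.5, 20.4 and 21.5 CPM in combination libraries, against 30.1, 29.2, 28.1 and 31.9 CPM in fatty acid libraries. All fatty acid libraries were above all others, and the combination was −0.38 ± 0.09 from them on the log2 scale. It had 18.3, 19.4, 17.7 and 21.04 CPM in formoterol libraries, against 22.5, 19.4, 19.6 and 20.99 CPM in control libraries. These 2 groups overlapped, with a log2 difference of −0.11 ± 0.09 that was not called. Fatty acid libraries exceeded control libraries by 0.53 ± 0.09, while combination and control libraries overlapped with a difference of 0.15 ± 0.09. IL18 thus ran opposite to its receptor gene IL18R1 in the fatty acid group, with the ligand gene highest and the receptor gene lowest there.

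IL33, the ligand of IL1RL1 and a nuclear alarmin, was at 0 counts in all 4 combination libraries, which allows up to 3 counts, or 0.0876 CPM in the library where 3 counts weigh most. It had 0 to 8 counts in fatty acid, 0 to 17 in formoterol and 0 to 2 in control libraries. IL1RN, the secreted receptor antagonist, had 0 to 8 counts in combination, 0 to 17 in fatty acid, 6 to 10 in formoterol and 0 to 10 in control libraries. Neither passed the filter, and no fold change is given for them. These limits cover counting error only.

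Replicate 2 of the combination group was unlike its 3 fellow libraries, with a summed level of 10 hepatocyte marker genes of 23860 CPM against 54930 to 61490 CPM. Without it the combination mean was 216 ± 21.7 CPM for IL1RL1, 94.9 ± 0.378 CPM for IL18R1, 397 ± 7.70 CPM for IL1R1, 327 ± 16.8 CPM for IL1R2, 23.0 ± 2.51 CPM for IL1RAP and 21.7 ± 1.41 CPM for IL18 (SD, n = 3). In combination against fatty acid cells the log2 difference was then 1.14 for IL1RL1, −0.46 for IL18 and 0.06 for IL1R2. The order of the groups for IL1RL1, IL18R1 and IL1R1 was the same with and without that library, while for IL1R2 the mean without it lay above the fatty acid mean of 314 ± 10.9 CPM.

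Of the 10 members, 6 form a cluster on the plus strand of chromosome 2, spanning 460.7 kb from 101991844 to 102452565 in GENCODE 29 (GRCh38) in the order IL1R2, IL1R1, IL1RL2, IL1RL1, IL18R1 and IL18RAP. IL1RN lies on the same chromosome at 113107214 to 113134016, IL1RAP on chromosome 3 at 190514051 to 190659750, IL33 on chromosome 9 at 6215786 to 6257983 and IL18 on the minus strand of chromosome 11 at 112143251 to 112164117. Within the cluster IL1R2 covers 101991844 to 102028544, IL1R1 102064544 to 102179874, IL1RL2 102186973 to 102240002, IL1RL1 102311502 to 102352037, IL18R1 102311529 to 102398775 and IL18RAP 102418689 to 102452565. The IL1RL1 and IL18R1 loci overlap because 1 annotated IL18R1 transcript starts inside the start of IL1RL1, but they share only 95 exon bases, which is 1.65% of the IL1RL1 and 2.18% of the IL18R1 exon bases. Reads in the shared bases could be counted for either gene or for none, and the sources used here do not say which of these the counting did.

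The pattern was not uniform along the cluster. In fatty acid against control cells the 4 members with over 10 CPM were all lower, between −1.13 for IL18R1 and −0.43 for IL1R1. In formoterol against control cells the first pair along the cluster, IL1R2 and IL1R1, were lower, at −0.32 and −0.34, and the later pair, IL1RL1 and IL18R1, were higher, at 0.51 and 0.13. In combination against fatty acid cells IL1R2 was at −0.01 and IL1R1 at 0.14, while IL1RL1 was at 1.07 and IL18R1 at 0.98.

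Of 15 other genes from 500 kb before to 500 kb after the cluster, 5 were tested: MAP4K4, LINC01127, SLC9A2, MFSD9 and TMEM182. LINC01127, a long non-coding RNA gene just before IL1R2, was lower than control in every treated group, with 5.50 ± 0.731 CPM in combination, 5.76 ± 0.516 CPM in fatty acid and 5.42 ± 0.907 CPM in formoterol libraries, against 8.42 ± 1.10 CPM in control libraries (SD, n = 4). It fell by 0.62 ± 0.15 in combination cells (edgeR adjusted p = 0.00723), by 0.55 ± 0.15 in fatty acid cells (edgeR adjusted p = 0.0148) and by 0.64 ± 0.15 in formoterol cells (edgeR adjusted p = 0.00893) on the log2 scale. The fatty acid call was lost without fatty acid replicate 3 at −0.49 (edgeR adjusted p = 0.0534) and without control replicate 4 at −0.49 (edgeR adjusted p = 0.0553). LINC01127 was named after its values were seen.

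With all libraries, none of the 4 protein-coding neighbours was called by edgeR in any of the 6 comparisons, and at an unadjusted p under 0.05 there were at most 2, in fatty acid against control cells, and 0 in combination against fatty acid cells. The kinase gene MAP4K4 was at −0.01 ± 0.06 in fatty acid against control cells (edgeR adjusted p = 0.939) and at 0.05 ± 0.06 in combination against fatty acid cells (edgeR adjusted p = 0.781). The sodium/proton exchanger gene SLC9A2 was at 1.04 ± 0.36 in fatty acid against control cells (edgeR adjusted p = 0.0547), and DESeq2 called it there and in combination against control cells. Control replicate 2 had 2.15 CPM of SLC9A2, against 0.503 to 0.861 CPM in the other control libraries. Without it SLC9A2 was called by edgeR at 1.68 in combination, 1.69 in fatty acid and 1.53 in formoterol against control cells, and for the interaction at −1.54. MFSD9 and TMEM182 were at −0.04 ± 0.09 and −0.11 ± 0.14 in combination against fatty acid cells (edgeR adjusted p = 0.903 and 0.809).

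**Figure D3:**
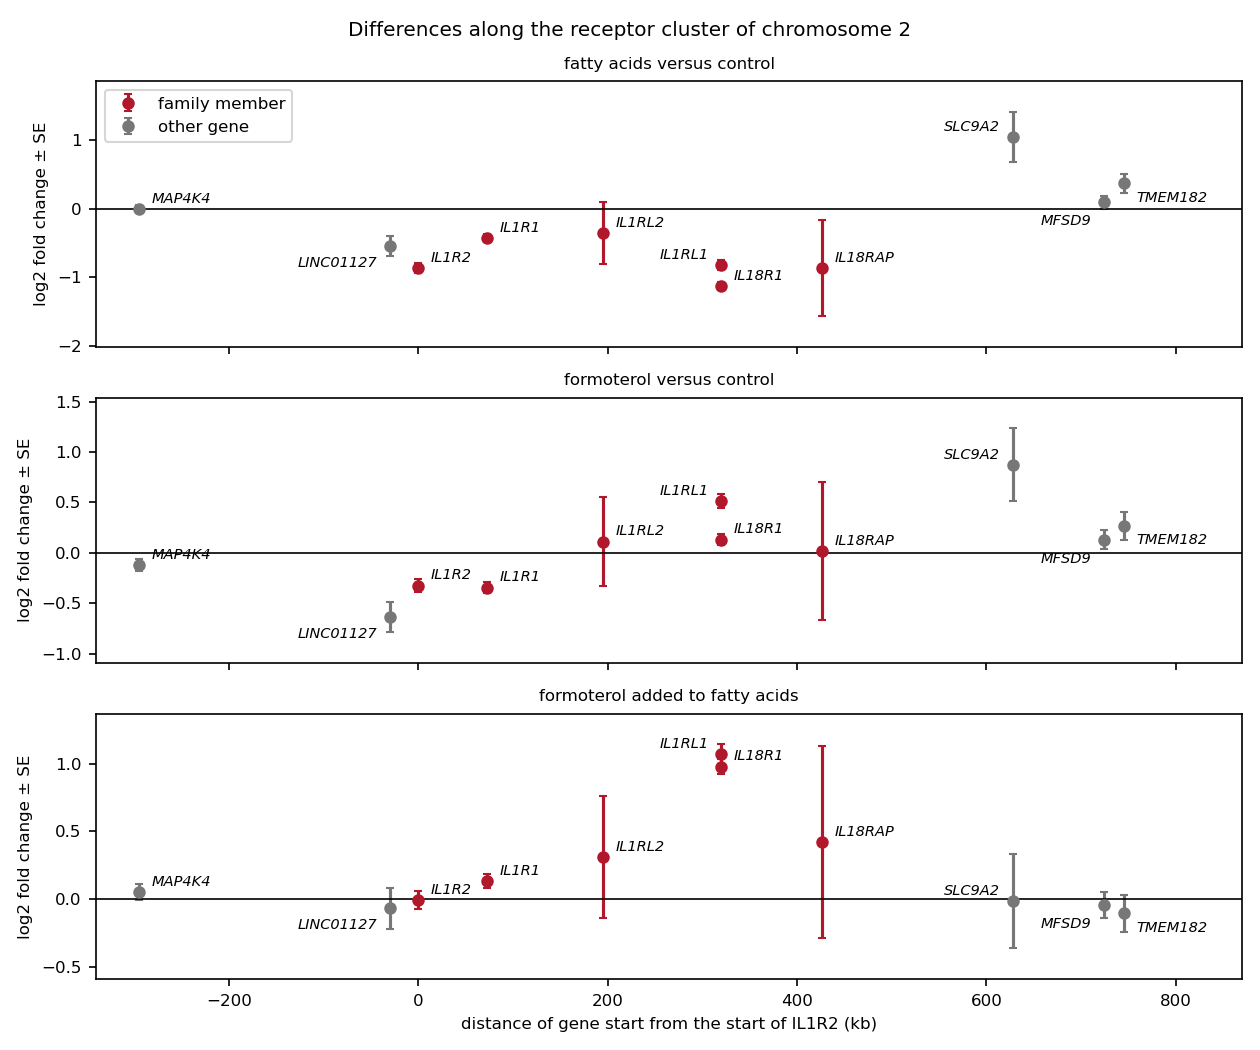
Log2 fold change with SE (vertical axis) against the distance of each gene start from the start of IL1R2 (kb, horizontal axis) for the 6 clustered members and 5 tested neighbours, in 3 comparisons; IL1RL1 and IL18R1 have nearly the same annotated start. Formoterol added to fatty acids left MAP4K4, LINC01127 and IL1R2 near 0, with IL1RL1 at 1.07 and IL18R1 at 0.98.

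IL1RL1 had the widest range of group means, 1.34 on the log2 scale, beside 1.26 for IL18R1, 0.88 for IL1R2, 0.72 for IL1RAP, 0.64 for IL18 and 0.43 for IL1R1. The genes nearest to its profile were ranked by the root mean square difference of log2 CPM, centred per gene, over the 16 libraries and 13885 protein-coding genes tested. The nearest was PDE3A, a phosphodiesterase that degrades cyclic AMP, with a difference of 0.157. It had 14.7 ± 1.35 CPM in combination, 7.37 ± 0.692 in fatty acid, 17.0 ± 2.19 in formoterol and 13.1 ± 1.26 in control libraries. Next came SIK1B at 0.171, CA12, a membrane carbonic anhydrase, at 0.183, the transcription factor gene TBX3 at 0.183 and SOCS2, a suppressor of cytokine signalling, at 0.184. SIK1B has a near-identical copy, SIK1, a salt-inducible kinase gene, so its level is uncertain. IL18R1 was the 7th nearest at 0.189, while IL1R1 was 3029th at 0.489 and IL1R2 3328th at 0.494. All libraries are shared between these genes, and nearness in profile is a description of level only.

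**Figure D4:**
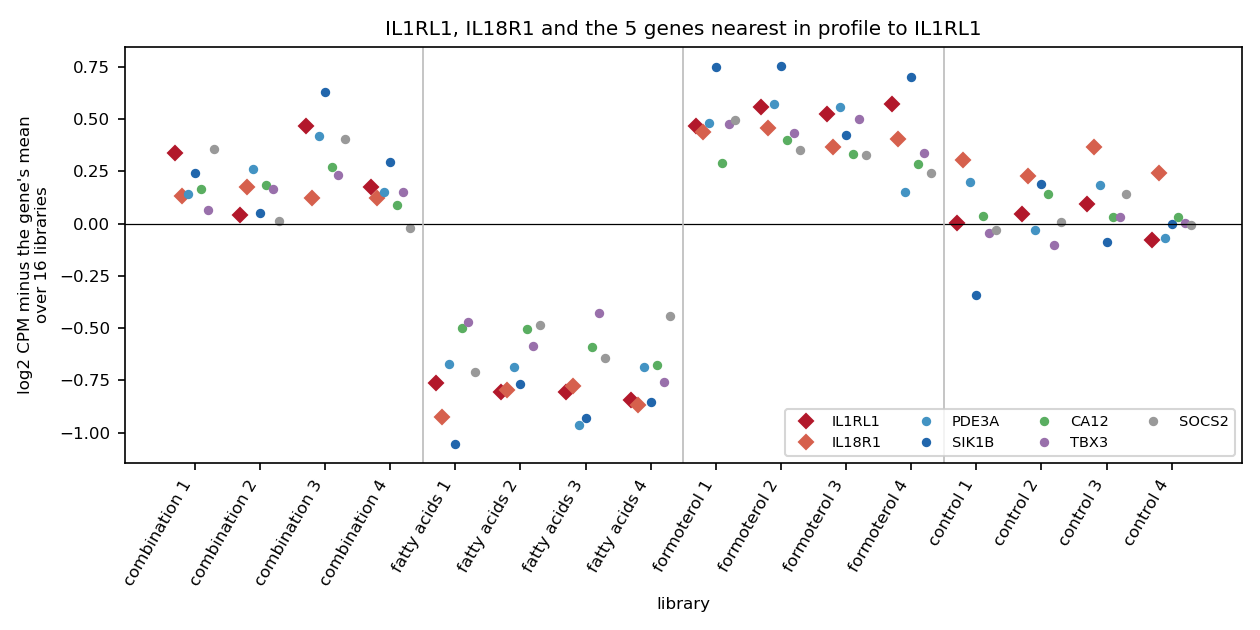
Log2 CPM of each gene minus its mean over the 16 libraries (vertical axis) for IL1RL1, IL18R1 (diamonds) and the 5 genes nearest in profile to IL1RL1 (circles), by library. All 7 genes were lowest in the 4 fatty acid libraries, and IL18R1 differed from IL1RL1 mainly by lying higher in the 4 control libraries.

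Genes that act with the members were examined in 4 lists of 69 genes, of which 55 were tested. Among other family genes the ligand genes IL1A and IL1B were scarce: IL1A was at 0 in 15 of 16 libraries, with 12 counts in combination replicate 2, and IL1B averaged 1.54 ± 0.620 CPM in combination, 1.30 ± 0.563 CPM in fatty acid, 1.30 ± 0.320 CPM in formoterol and 1.01 ± 0.497 CPM in control libraries. Of the 4 tested genes of this list, IL18BP, a secreted binder of interleukin 18, was called in 1 comparison, 25% beside 18.4% of all genes there. It rose to 2.78 ± 0.670 CPM in combination cells, against 1.20 ± 0.320 CPM in formoterol cells, a log2 difference of 1.19 ± 0.24 (edgeR adjusted p = 0.00153). Fatty acid cells had 2.345 ± 0.303 CPM and control cells 1.845 ± 0.218 CPM, so the rise is measured from a formoterol mean below control. Neither formoterol against control, at −0.60 ± 0.24 (edgeR adjusted p = 0.1265), nor fatty acids against control, at 0.35 ± 0.24 (edgeR adjusted p = 0.374), was called. IL18BP shares 15.6% of its exon bases with the opposite-strand gene NUMA1, which had 56.8 times its counts, so this value is uncertain.

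Of 25 tested signalling genes downstream of the receptors, 2 rose and 1 fell in combination against control cells, which is 12% beside 14.3% of all genes. In fatty acid against control cells 2 rose and 1 fell, 12% beside 16.5% of all genes, and in formoterol against control cells 1 rose, 4% beside 10.3%. In combination against formoterol cells 2 rose and 2 fell, 16% beside 18.4%, and the interaction was called for 1, 4% beside 5.5%. None was called by edgeR or DESeq2 in combination against fatty acid cells, where 4 had an unadjusted edgeR p under 0.05 and 2.8% of all genes were called. These shares are near or under those of all genes and are not a result about the list. MAPK8, which encodes the kinase JNK1, rose by 0.36 ± 0.08 in fatty acid cells (edgeR adjusted p = 0.00248) and by 0.29 ± 0.08 in formoterol cells (edgeR adjusted p = 0.0222) on the log2 scale, and its interaction was −0.50 ± 0.11 (edgeR adjusted p = 0.0124). The formoterol call was lost without formoterol replicate 3 or 4 or control replicate 1, 3 or 4, at 0.24 to 0.28 (edgeR adjusted p = 0.0514 to 0.086). ECSIT, a signalling adaptor that is also a mitochondrial complex I assembly factor, fell by 0.51 ± 0.09 in combination against control cells (edgeR adjusted p = 0.00045) and by 0.60 ± 0.09 in combination against formoterol cells (edgeR adjusted p = 9.58e-05). Its fall of 0.31 ± 0.09 in fatty acid against control cells (edgeR adjusted p = 0.0248) was lost without fatty acid replicate 2, control replicate 1 or control replicate 4, and with no count filter, at −0.31 to −0.25 (edgeR adjusted p = 0.0577 to 0.1). MYD88, the shared adaptor of these receptors, rose by 0.30 ± 0.09 in combination against control cells (edgeR adjusted p = 0.0214), a call lost without combination replicate 1, 3 or 4 or control replicate 3 at 0.26 to 0.29 (edgeR adjusted p = 0.0549 to 0.0794). With fatty acids alone MYD88 also rose, by 0.28 ± 0.09 from control (edgeR adjusted p = 0.03235). IKBKB, an NF-kB pathway kinase, rose by 0.37 ± 0.09 in combination against formoterol cells (edgeR adjusted p = 0.00767). That rise is measured from a formoterol mean of 25.9 ± 2.31 CPM, below the control mean of 30.9 ± 2.78 CPM. Neither formoterol against control, at −0.25 ± 0.09 (edgeR adjusted p = 0.0895), nor fatty acids against control, at 0.08 ± 0.09 (edgeR adjusted p = 0.643), was called.

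Of 6 tested genes for ligand processing, 1 rose in combination and 1 in fatty acid cells against control, 16.7% each beside 14.3% and 16.5% of all genes. In formoterol against control cells 1 fell, 16.7% beside 10.3%, and in combination against formoterol cells 2 rose, 33.3% beside 18.4%. None was called by edgeR or DESeq2 in combination against fatty acid cells, with 1 at an unadjusted edgeR p under 0.05. None was called for the interaction, with 0 at that level. With 6 genes these shares are not a result about the list. NLRP1, an inflammasome sensor, rose to 6.97 ± 1.95 CPM in combination and 6.41 ± 0.249 CPM in fatty acid cells, against 3.92 ± 1.03 CPM in control cells. The log2 differences were 0.83 ± 0.20 (edgeR adjusted p = 0.00676) and 0.71 ± 0.20 (edgeR adjusted p = 0.0181), and the second was lost without control replicate 1 at 0.54 (edgeR adjusted p = 0.0662). CASP4, an inflammatory caspase, fell by 0.26 ± 0.07 in formoterol against control cells (edgeR adjusted p = 0.0132) and rose by 0.24 ± 0.07 in combination against formoterol cells (edgeR adjusted p = 0.0127). Without formoterol replicate 1 these were −0.22 (edgeR adjusted p = 0.0508) and 0.20 (edgeR adjusted p = 0.0529), and without control replicate 3 the formoterol value was −0.23 (edgeR adjusted p = 0.0577).

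Of 20 tested genes that hepatocytes are known to induce in response to interleukin 1, 5 rose and 1 fell in combination against control cells, which is 30% beside 14.3% of all genes. In fatty acid against control cells 5 rose and 1 fell, 30% beside 16.5%, and in formoterol against control cells 4 rose and 3 fell, 35% beside 10.3%. In combination against formoterol cells 7 rose and 1 fell, 40% beside 18.4%, and in combination against fatty acid cells 2 rose and 1 fell, 15% beside 2.8%. The interaction was called for none by edgeR or DESeq2, with 1 at an unadjusted edgeR p under 0.05. The list was chosen with earlier results of these data known, so its shares are a description. LCN2, an acute-phase lipocalin, had 13.2 ± 2.61 CPM in combination and 13.2 ± 1.17 CPM in fatty acid cells, against 5.46 ± 1.13 CPM in control cells, log2 differences of 1.27 ± 0.16 (edgeR adjusted p = 5.41e-06) and 1.28 ± 0.16 (edgeR adjusted p = 5.62e-06). With formoterol alone LCN2 was also higher than control, by 0.57 ± 0.16 (edgeR adjusted p = 0.0228). NFKBIZ, a nuclear co-regulator of NF-kB, rose by 0.52 ± 0.09 in fatty acid against control cells (edgeR adjusted p = 0.000222) and fell by 0.40 ± 0.09 in combination against fatty acid cells (edgeR adjusted p = 0.0111), the fall being lost without fatty acid replicate 2 at −0.33 (edgeR adjusted p = 0.0537). NFKBIZ was highest in the fatty acid group, with 41.4 ± 4.70 CPM, where IL1RL1 was lowest. TNFAIP3, a brake on NF-kB, fell by 0.53 ± 0.10 in formoterol against control cells (edgeR adjusted p = 0.00215) and rose by 0.57 ± 0.10 in combination against formoterol cells (edgeR adjusted p = 0.000458).

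The chemokine genes CXCL2 and CXCL8 and the acute-phase gene CRP had different patterns. CXCL2 rose by 1.14 ± 0.14 in combination against control cells (edgeR adjusted p = 4.16e-06) and by 0.68 ± 0.14 in formoterol against control cells (edgeR adjusted p = 0.00285). With fatty acids alone CXCL2 also rose, by 0.62 ± 0.14 from control (edgeR adjusted p = 0.003). CXCL8 had 26.9 ± 6.98 CPM in combination, 34.4 ± 4.05 CPM in fatty acid and 14.6 ± 1.95 CPM in formoterol cells, against 23.3 ± 1.29 CPM in control cells. It rose by 0.88 ± 0.14 in combination against formoterol cells (edgeR adjusted p = 0.000168) and by 0.56 ± 0.14 in fatty acid against control cells (edgeR adjusted p = 0.00717). It fell by 0.68 ± 0.14 in formoterol against control cells (edgeR adjusted p = 0.00389), so the first rise is measured from a formoterol level below control, and combination against control cells, at 0.20 ± 0.14, was not called (edgeR adjusted p = 0.396). CRP had 103, 28.1, 96.7 and 98.1 CPM in combination cells, against 40.4, 44.4, 36.5 and 36.4 CPM in fatty acid cells. Replicate 2 alone lay below the fatty acid libraries, and the rise of 1.05 ± 0.23 (edgeR adjusted p = 0.0141) was lost without combination replicate 1 or fatty acid replicate 3 or 4, at 0.92 to 1.01 (edgeR adjusted p = 0.0521 to 0.0596). Without combination replicate 2 it was 1.33. With formoterol alone CRP had 57.15 ± 2.02 CPM, against 27.15 ± 3.49 CPM in control cells, and these groups did not overlap. That rise was 1.07 ± 0.24 (edgeR adjusted p = 0.00578).

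Markers of other cells were examined because IL1RL1 and IL18R1 are known from mast cells, lymphocytes and endothelium. The T cell marker CD3E, the mast cell markers MS4A2 and TPSAB1, and the endothelial marker CDH5 were at 0 counts in all 16 libraries, and the 6 mast cell and basophil markers summed to at most 0.754 CPM. The 8 leukocyte markers summed to 12.4 to 25.7 CPM in combination, 17.8 to 21.4 CPM in fatty acid, 25.1 to 31.1 CPM in formoterol and 21.8 to 26.9 CPM in control libraries, nearly all of it CD14, which hepatocytes also express, with the pan-leukocyte marker PTPRC at 4 counts at most. IL1RL1 was at 95.3 CPM or more in every library, and whether other cells contributed to it was not tested. The 5 endothelial markers summed to 52.5 to 107 CPM in combination, 158 to 171 CPM in fatty acid, 38.9 to 50.6 CPM in formoterol and 117 to 133 CPM in control libraries. KDR gave nearly all of this, so the sum follows 1 gene and is no measure of endothelial cells. The 6 stellate cell and fibroblast markers summed to 153 to 218 CPM in combination and 160 to 187 CPM in fatty acid libraries. Their sum was 135 to 158 CPM in formoterol and 160 to 193 CPM in control libraries. LUM, at 78.32 to 138.3 CPM, and PDGFRB, at 37.35 to 60.98 CPM, gave most of it and were detected in every library. ACTA2 was at 8.594 to 14.66 CPM, while COL1A2 was at 0 in all libraries.

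Of the labelled cell types, hepatocytes had 10 of 10 markers detected in every library, and of the cholangiocyte markers KRT19 was at 51.6 to 179 CPM while EPCAM was at 0 in every library. The hepatocyte sum was 23860 to 61490 CPM in combination, 52410 to 58510 CPM in fatty acid, 64160 to 69500 CPM in formoterol and 26690 to 39580 CPM in control libraries. The cholangiocyte sum was 153 to 168 CPM in combination, 189 to 222 CPM in fatty acid, 111 to 114 CPM in formoterol and 110 to 119 CPM in control libraries. The hepatocyte sum is mostly ALB, SERPINA1 and FGB, and other markers ran differently. CYP3A4 averaged 663 CPM in combination, 1917 CPM in fatty acid, 2374 CPM in formoterol and 2181 CPM in control libraries. CPS1 averaged 75.5 CPM in combination, 43.7 CPM in fatty acid, 136 CPM in formoterol and 49.3 CPM in control libraries, and TTR 602 CPM in combination, 889 CPM in fatty acid, 1143 CPM in formoterol and 666 CPM in control libraries. The cholangiocyte sum is mostly KRT19, at 126 CPM in combination, 168 CPM in fatty acid, 55.4 CPM in formoterol and 58.7 CPM in control libraries. SOX9 ran the other way, at 22.1 CPM in combination, 29.2 CPM in fatty acid, 47.5 CPM in formoterol and 47.9 CPM in control libraries. Both sums moved with the treatments, as did the members, and their part in the members' differences was not tested.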

How the data were processed

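RNA was sequenced from 16 differentiated HepaRG libraries in 4 groups of 4. The deposited table gives gene counts. Per the submitters' processing notes, HISAT2 2.0.5 and DESeq2 were used with mm39, a mouse build. All 58735 IDs are nevertheless human and match GENCODE 29 (Ensembl 94) in name and coordinates. The sources used here name neither the counting program nor its strand setting. The 10 members and all gene lists were chosen with earlier results of these data known, and the replicates' numbers were not used for pairing in the main fit.

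Counts were filtered with filterByExpr, which left 18121 genes, scaled by TMM and fitted with edgeR 4.0.16 (R 4.3.3) as 4 group means, with 12 residual degrees of freedom and Benjamini-Hochberg adjustment over all genes tested. The fit was also run on simulated counts. Those had the same spread for every gene, smaller than the common dispersion of 0.0246 here, so that run does not show the error rates in these data. Levels are TMM-scaled CPM, per kilobase of the table's gene length between genes, without correction for transcript choice. Named besides the 10 members were, per list and comparison, up to 2 called genes with the smallest p and at least 1 CPM, the tested protein-coding neighbours and the 5 nearest profiles. Alternatives were DESeq2 1.42.0, its size factors, no count filter, at least 1 CPM in 4 libraries, a replicate block and leaving out each library. Library totals of 32471299 to 65673126 counts put 3 counts at 0.0505 to 0.0966 CPM. Promoter sequences are RefSeq's.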

Additional observations from a re-analysis of the deposited data

Results flagged for a closer look

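IL1RL2 was at 0.696 CPM in combination replicate 4, apart from the other 3 combination libraries at 0.881 to 0.905 CPM. It rests on 25 counts, and with 32 sets of 4 libraries examined in this way chance marks about 1 in 20.

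IL1R1 was lower in every formoterol library than in every control library, and higher in every combination library than in every fatty acid library. The second difference, 0.14 ± 0.05 on the log2 scale, was not called. Of all genes tested, 16.7% did not overlap in the first comparison and 9.34% in the second. The interaction was 0.48 on the log2 scale, and IL1R1 was among the 3 members called for it in the fit over all genes. As IL1R1 was chosen with this result known, this is a description and no p is given.

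The interaction of MAPK8 was −0.50 on the log2 scale (edgeR adjusted p = 0.0124). Its level was 39.3 ± 1.34 CPM in combination, 45.5 ± 2.59 CPM in fatty acid, 43.1 ± 3.41 CPM in formoterol and 35.4 ± 3.88 CPM in control libraries (SD, n = 4). Formoterol against control cells was called at 0.29 (edgeR adjusted p = 0.0222), while combination against fatty acid cells, at −0.21, was not (edgeR adjusted p = 0.178), so a fall there is not shown.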

How the results depend on the processing

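With 21 alternatives, the log2 fold changes of IL1RL1, IL18R1, IL1R1, IL1RAP and IL18 kept their sign in all 6 comparisons. For formoterol added to fatty acids, IL1RL1 lay between 1.00 and 1.14 and IL18R1 between 0.95 and 1.00. Members called numbered 3 rather than 5 in combination against formoterol cells without combination replicate 1 or formoterol replicate 3 (leave-one-out range 3 to 5), and 5 rather than 3 for the interaction with no count filter. For formoterol added to fatty acids, 3 members were called, and 2 to 3 with 1 library left out. In combination against control cells 4 were called, 3 to 4 with 1 library left out. That count was 5 with DESeq2 or with at least 1 CPM in 4 libraries. Over all genes, formoterol added to fatty acids gave 507 calls, 880 with no count filter, 790 with DESeq2 and 302 to 590 with 1 library left out. The interaction gave 997, 1523 with no count filter and 444 to 1325 with 1 library left out, and formoterol against control gave 1872 and 1002 to 2588 (1002 without control replicate 3). Leaving out fatty acid replicate 3 gave the 302, and control replicate 3 the 444. Pathway calls with 1 library left out ranged over 7 to 16 for fatty acids against control (16 without combination replicate 2), 5 to 11 for formoterol against control, 1 to 6 for formoterol added to fatty acids (6 without combination replicate 2) and 6 to 16 for combination against control, and the interaction gave 3 pathway calls with no count filter. Neighbour calls for formoterol against control were 1 to 2. Same-numbered libraries did not deviate together: 0 of 24 pairs had a correlation over 0.1, and 9 of 24 were best with their own number. With replicate number as a block, calls over all genes were 3108 for fatty acids against control, 1967 for formoterol against control, 537 for formoterol added to fatty acids, 3447 for fatty acids added to formoterol, 2583 for combination against control and 1089 for the interaction, and no count moved by over 1.5 times. Depth limits IL1RL2, IL18RAP, IL1RN and IL33, and shared exons limit IL18BP.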
